A study of Drosophila melanogaster with 3 samples.

Results

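Chromosome 4 is the smallest autosome of Drosophila melanogaster, and 53 of its genes were followed in males homozygous for a kep1 mutation. Kep1 belongs to the STAR family, a class of RNA-binding proteins with a KH domain that act in RNA processing. The genes were taken from a list of gene symbols on chromosome 4, and their probes were found through the CG gene numbers printed in the array tables. Of the 53 genes, 47 had at least 1 probe, with 65 probes among them. All 65 passed the filter for testing, a loose one that 11733 of 11744 probes passed. Of the 47 genes, 33 were above the level of blank spots in 6 of 6 channels, 9 in 1 to 5 and 5 in 0. The other 6 (PlexB, fd102C, Mitf, Dyrk3, dpr7 and PIP4K) were without a probe and were not analysed here. They stand among 9183 genes and 11733 probes tested on the arrays. A reference gene table lists 114 genes on chromosome 4, of which 80 are protein coding and 68 had a probe, so that 21 measured genes of the chromosome lay outside the list.

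Adult males of 2 groups, all aged 3 to 4 days, were compared: wild-type w1118 flies and flies homozygous mutant for kep1 (kep1-/kep1-), on 3 spotted 2-colour cDNA arrays. Each array held 1 wild-type RNA labelled with Cy3 and 1 mutant RNA labelled with Cy5, and the series' design text counts 3 independent RNA samples taken from heads, whereas the source labels name male RNA with no tissue. The sources used here do not give the allele, the genetic background of the mutant stock, or how many flies made up each sample, and all p-values rest on the variation among 3 arrays. The dyes were never swapped, so that for every gene below a genotype difference, a difference between the stocks and a dye effect of that probe cannot be told apart.

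Most of chromosome 4 carries the marks of heterochromatin, the densely packed form of chromatin that elsewhere in the genome is poor in expressed genes. Its genes are nevertheless transcribed, and a chromosome-specific protein, Pof, binds along it and supports the output of its genes. The genes include the Pax family transcription factors of the eye, signalling components of the Hedgehog and Wingless pathways, and several proteins of the synapse. The comparison asked whether this chromosome leaned toward the mutant channel on each array, against probes of like brightness.

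Each gene was given a log2 ratio of mutant over wild type on each array, after background correction and intensity-dependent normalization, so that 0 means equal signal and a positive value means more signal from the mutant. A gene with several probes was represented by its brightest one. The kep1 gene, listed as qkr58E-3, checked the labels with log2 ratios of -1.59, -1.35 and -2.13 on arrays 1, 2 and 3, a mean of -1.69 ± 0.40 (SD, n = 3). Its foreground intensity was 852 to 1343 in the wild-type channel and 228 to 254 in the mutant channel, and the channels did not overlap, although its adjusted p in limma was 0.0726. Median foreground intensities of all probes were 227 to 307 over the 6 channels, and blank spots reached 112 to 446 at their 95th percentile. Array 2 stood apart from the others. Across all genes its ratios correlated with those of array 1 at a Pearson's r of 0.384 and with those of array 3 at 0.446, while arrays 1 and 3 had an r of 0.698.

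Marker genes of other tissues differed between the channels. All 6 measured gut markers of 11 listed lay below 0 on every array, with a median log2 ratio of -1.80, and their summed foreground was 15394 to 29826 in wild type and 6704 to 11513 in mutant. Of 10 markers of testis and accessory gland, 8 lay below 0 on all 3 arrays. The sums over the 10 overlapped, at 13499 to 29944 in wild type and 5808 to 15855 in mutant. On each array the mutant sum was the lower one. Muscle markers had a median of -0.19 over 8 genes, with sums of 57014 to 62490 in wild type and 47004 to 53986 in mutant. Fat body markers had a median of 0.67 over 4 of 5 genes, with sums of 1012 to 1297 in wild type and 2882 to 7479 in mutant. Lsp2 alone had 409 to 757 in wild type and 2046 to 5583 in mutant, with a mean log2 ratio of 2.72. The means of Fbp2, Fbp1 and Lsp1gamma were 0.96, 0.38 and 0.031. Neuron markers had a median of 0.067 over 7 of 8 genes, with overlapping sums of 8189 to 13655 in wild type and 10275 to 12237 in mutant. Glia markers had a median of 0.080 over 5 genes, with overlapping sums of 9113 to 12038 and 10895 to 12352. Photoreceptor markers had a median of 0.099 over 11 genes, with overlapping sums of 37370 to 58467 and 41019 to 47987. Female markers differed most between arrays, with medians of -0.084, 2.39 and 0.013 over 5 genes. Their sums on arrays 1, 2 and 3 were 3981, 594 and 2249 in wild type and 3331, 4645 and 2502 in mutant. On array 2 the yolk protein genes Yp1 and Yp3 had log2 ratios of 2.96 and 2.39. There fit, a gene expressed mainly in the female fat body, had 2.93, and the dimmer Yp2 and yl had 0.13 and 0.013. By the sums, array 2 held far more female marker signal in the mutant channel than in the wild-type channel. On arrays 1 and 3 Yp1 went the other way, at -2.54 and -0.78, while Yp3 had 0.78 and 0.64 and fit had 0.31 and 1.17. None of the marker genes measured had a foreground intensity of 0 in all 6 channels, but some were dim. The foregrounds of bam, at 88 to 159, lay below the blank level of each channel. In bulk RNA of this kind, fewer cells of a type and less RNA per cell cannot be told apart, and the part of these shifts in the values of the chromosome 4 genes was not tested.

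The chromosome 4 genes lay slightly to the mutant side. Their median log2 ratio was 0.12 on array 1, 0.049 on array 2 and 0.065 on array 3, where the medians of all other genes were -0.003, -0.013 and -0.003. Averaged over arrays first, the 47 genes had a median of 0.074, which is 1.05-fold, and the middle 50% of them ran from 0.00 to 0.15. All 3 arrays put the median of the chromosome above 0 and above that of the other genes, and the 3 array medians had a mean of 0.078 ± 0.037 (SD, n = 3). The mean ratio was above 0 in 34 of 47 genes (72.3%), against 47.2% of all genes. On the single arrays 33 genes (70.2%), 24 genes (51.1%) and 31 genes (66.0%) were above 0, where 49.2%, 47.1% and 48.7% of all genes were. The lean was thus seen on arrays 1 and 3 in the number of genes, and on array 2 the number was close to that of all genes. The median of the 47 genes was 0.055 without array 1, 0.103 without array 2 and 0.084 without array 3, and 30, 37 and 32 of them had a mean above 0.

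**Figure D1:**
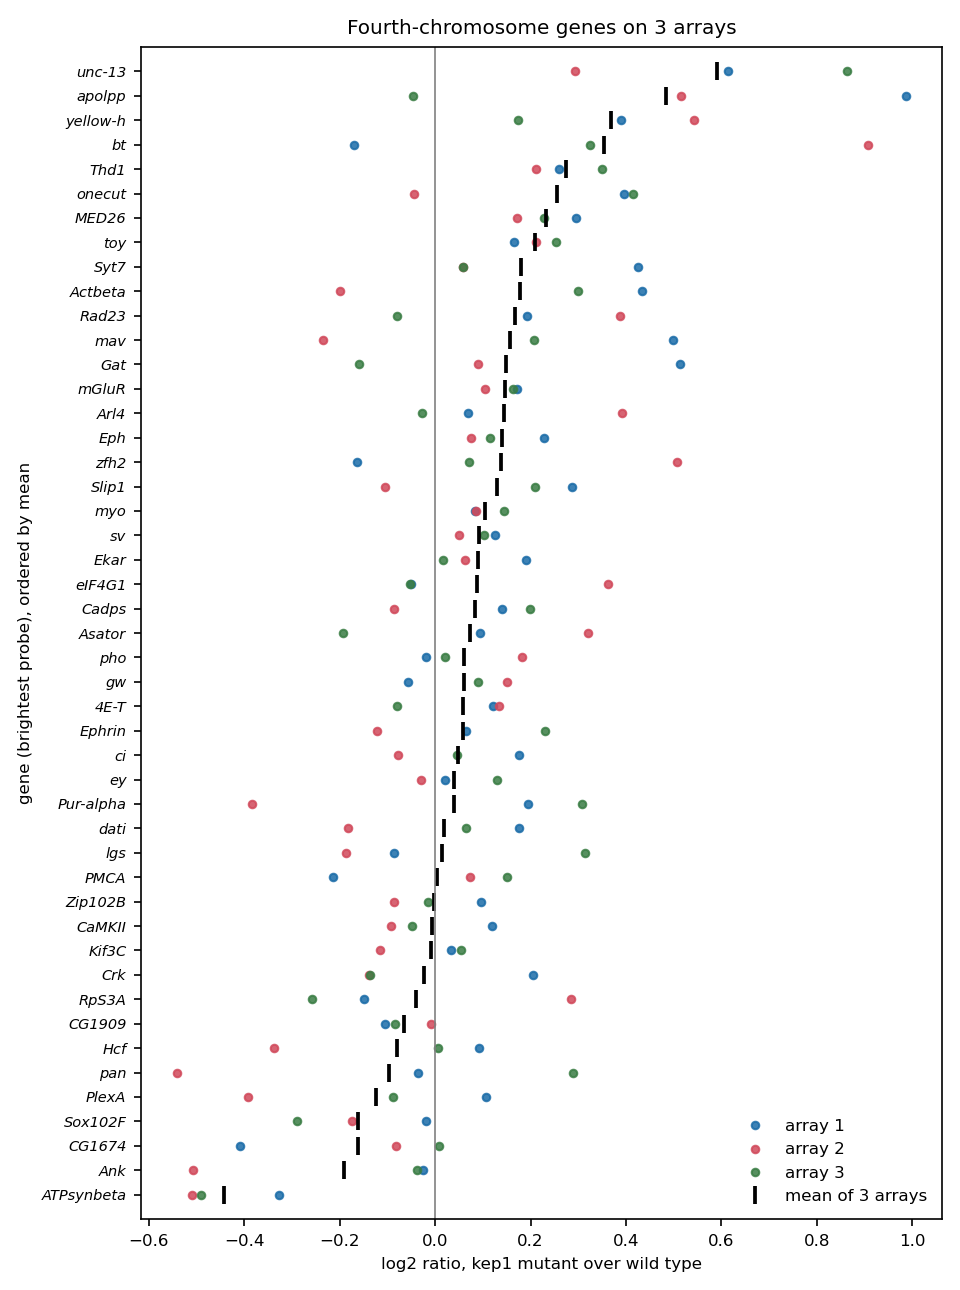
Log2 ratio of kep1 mutant over wild type (x axis) for the 47 measured genes of the list (y axis, brightest probe of each, ordered by mean), with 1 coloured point per array and a black bar at the mean of 3 arrays. The means run from -0.44 for ATPsynbeta to 0.59 for unc-13, and 34 of the 47 bars lie to the right of 0.

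Brightness was matched because a ratio can drift with signal, and 40, 36 and 38 of the 47 genes lay in the brighter 50% of probes on arrays 1, 2 and 3. Each gene was set against the median of the other probes in its own brightness class, out of 10, on that array. After this step the median excess of the members was 0.13 on array 1, 0.056 on array 2 and 0.070 on array 3, a mean of 0.084 ± 0.038 (SD, n = 3 arrays), or 1.06-fold. Without matching the mean was 0.081, and the medians of the other probes in the 10 brightness classes stayed between -0.020 and 0.009. Members exceeded their matched median in 33, 25 and 31 of 47 cases on the 3 arrays. The excess on array 2 was 0.002 when all probes of a gene were averaged and 0.012 when only the 34 genes above the blank spots were kept. No p-value was computed for the lean of the list, because its members were chosen with results of these arrays known.

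By the median, the lean was present in probes above the blank spots. In 34 genes the brighter channel was over the blank level on every array, and their median was 0.079, against -0.016 for 3373 other genes above the blanks. The remaining 13 genes had a median of 0.061. All 7 members in the middle of 3 brightness classes had a mean above 0, with a median of 0.14. In the brightest class 34 members had a median of 0.079 against -0.024 for 3027 other genes. These members had the same median on each array as the 34 genes above the blanks, so this is not a second result. In the dimmest class 6 members had a median of 0.019 against -0.005, with 3 of the 6 above 0.

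No other chromosome arm had a median beyond 0.011 in size. The medians were 0.003 for the X, -0.010 for 2L, -0.011 for 2R, -0.005 for 3L and -0.010 for 3R, with 1465 to 2268 genes each, and the share of genes above 0 ran from 45.4% on 2R to 50.9% on the X. The 21 measured genes of chromosome 4 outside the list had medians of 0.11, 0.083 and 0.004 on the 3 arrays, and their median after averaging was 0.040. Of these, 16 (76.2%) had a mean above 0. Over all 68 measured genes of the chromosome the median was 0.060. A median of this size was not particular to chromosome 4 among small lists. Neuron, glia and photoreceptor markers, given above, had medians of 0.067, 0.080 and 0.099, and muscle markers had -0.19.

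**Figure D2:**
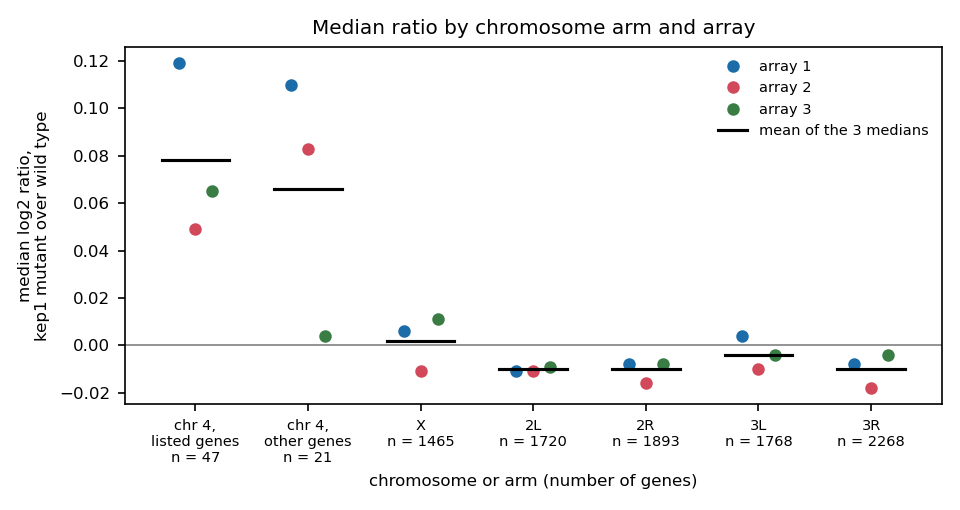
Median log2 ratio of kep1 mutant over wild type (y axis) for the listed and the other genes of chromosome 4 and for the genes of the X and the other arms (x axis), with 1 point per array and a bar at the mean of the 3 array medians. The listed genes lie at 0.12, 0.049 and 0.065, and the 21 other genes of the chromosome lie at 0.11, 0.083 and 0.004.

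Gene by gene, no difference passed the test. With p-values adjusted over all 11733 probes by the Benjamini-Hochberg method in limma, 0 of the 65 member probes were called higher and 0 lower at a threshold of 0.05, against 8 probes called higher (0.0682%) and 9 called lower (0.0767%) in the whole table, 0.145% together. At a share that low, a list of 65 probes need hold no call. Before adjustment, 10 member probes (15.4%) were higher in the mutant at a p below 0.05 in limma and 2 (3.08%) were lower. The whole table had 6.24% higher and 9.25% lower, 15.5% together. Among probes the balance thus had the opposite direction to that in the whole table, but toy and MED26 count more than once among those higher. With 1 probe per gene, 6 of 47 members (12.8%) were higher and 1 (2.13%) was lower. The share over all genes was not computed this way. In 11 of 47 genes (23.4%) the ratio was above 0 on all 3 arrays, against 17.9% of all genes, and in 4 (8.51%) it was below 0 on all 3, against 21.4%. Together 15 genes (31.9%) kept 1 sign, against 39.3% of all genes. Of the 34 members above the blanks, 17.6% were above 0 on all 3 arrays, against 21.0% of the 3373 other genes above the blanks. Below 0 on all 3 were 8.82% of these members and 24.3% of those genes. A larger share above 0 on all arrays was thus not seen above the blanks. The 95% confidence intervals of the members had a median half-width of 0.24, and for 46 of 47 genes the whole interval lay within a log2 ratio of 1 in either direction. Only apolpp had a bound beyond this, at 1.05.

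Transcription factors that bind DNA made up 9 of the measured genes, and 7 of them had a mean ratio above 0, with a median of 0.047. The paired-box gene toy (twin of eyeless), which acts at the top of the eye-forming gene network, had log2 ratios of 0.17, 0.21 and 0.25 by its brighter probe. The arrays lay close together, all above 0, with a mean of 0.21 ± 0.044 and an adjusted p of 0.182 in limma. A dimmer probe of toy gave 0.23, 0.13 and 0.34, with a mean of 0.23. Its relative ey (eyeless), which toy activates in the developing eye, had a mean of 0.040 from a probe that was not above the blank spots in any of the 6 channels. The Pax gene sv (shaven), needed for cone cells and sensory bristles, was also below the blank level in all channels, at a mean of 0.092.

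Among the other factors, onecut, a homeodomain protein of neurons, had ratios of 0.40, -0.043 and 0.41. It was high on arrays 1 and 3 and near 0 on array 2. Both probes of zfh2, a zinc-finger homeodomain protein, had means above 0, at 0.14 and 0.23, and were above the blanks in 4 and 2 of 6 channels. The Hedgehog pathway effector ci had a mean of 0.047 and dati, a zinc-finger protein of the nervous system, one of 0.019. The probes of ci and dati were above the blanks in 2 and 1 of 6 channels.

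Below 0 stood pan, the TCF factor at the end of the Wingless pathway, and Sox102F, a SoxD family protein. The ratios of pan were -0.036, -0.54 and 0.29, which disagree in sign between arrays. Sox102F had -0.019, -0.17 and -0.29, with a mean of -0.16 ± 0.14 and an adjusted p of 0.402. Its probe was named through the clone annotation of 1 array layout, not through the CG column.

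Of the 5 chromatin and transcription co-regulators, 4 had a mean above 0, with a median of 0.039. MED26, a subunit of the Mediator complex that links activators to RNA polymerase, was the steadiest, with 0.30, 0.17 and 0.23 by its brightest probe. All arrays were above 0 and the mean was 0.23 ± 0.062, with an adjusted p of 0.172 in limma. Of its 3 further probes, those of means 0.27 and 0.16 ran the same way, and the dimmest, above the blanks in 2 of 6 channels, had a mean of -0.050.

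Pur-alpha, which binds single-stranded nucleic acids, had the brightest probe of this group and the least settled value, at 0.20, -0.38 and 0.31. Array 2 opposed the other arrays, and the mean of 0.039 turned to -0.039 without array 1 and to -0.095 without array 3. The Wingless co-activator lgs (legless, the BCL9 protein) had a mean of 0.014. Hcf, a host cell factor found in several chromatin complexes, had means of -0.080 and -0.020 from its probes, and pho, a DNA-binding protein of the Polycomb group, had a mean of 0.061 from a probe below the blank level.

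The genes of the synapse had a median of 0.14, with 7 of 8 above 0 and 4 above 0 on all arrays. Neuron markers had medians of 0.092, -0.20 and 0.31 on the 3 arrays, and their part in these values was not tested. The highest mean of the whole list belonged to unc-13, whose protein readies synaptic vesicles for release. Its brighter probe had foreground intensities of 914, 663 and 448 in wild type and of 1564, 702 and 818 in mutant. The log2 ratios were 0.61, 0.29 and 0.86, all above 0 but spread widely, with a mean of 0.59 ± 0.29 and an adjusted p of 0.144 in limma. Its other probe gave 0.16, 0.057 and 0.28, a mean of 0.16, so that the probes shared a direction and the order of the arrays but not the size.

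Syt7, a synaptotagmin that senses calcium in vesicle release, had 0.42, 0.058 and 0.059, so that its mean of 0.18 ± 0.21 rested mainly on array 1. Its probe was above the blanks in 4 of 6 channels. The metabotropic glutamate receptor mGluR had 0.17, 0.10 and 0.16, a mean of 0.15 ± 0.036 with an adjusted p of 0.297. These mGluR ratios came from a probe above the blank level in 3 of 6 channels. Ekar, an ionotropic glutamate receptor of the kainate type, had a mean of 0.090 and was above 0 on every array. The Ekar probe was above the blank level in only 2 of 6 channels.

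Gat, the GABA transporter of glia, had 0.51, 0.090 and -0.16, which spans 0. Slip1, a partner of the Slowpoke potassium channel, had 0.29, -0.11 and 0.21. The calcium-dependent kinase CaMKII, whose probe was the brightest of the synapse group, had 0.12, -0.092 and -0.048, a mean of -0.007. Cadps, which primes dense-core vesicles, differed in sign between its probes, with means of 0.084 and -0.051.

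Axon guidance was covered by 3 of 5 listed genes. The receptor tyrosine kinase Eph had ratios of 0.23, 0.076 and 0.12, all above 0, with a mean of 0.14 ± 0.079 and an adjusted p of 0.370 in limma. Its ligand Ephrin had a mean of 0.058, and the arrays differed in sign, from -0.12 to 0.23. PlexA, a receptor for semaphorins, had means of -0.12 and -0.26 from its probes. Together the 11 genes of the synaptic and guidance groups had a median of 0.13. Without them the other 36 genes, which still held onecut, dati and Actbeta, had a median of 0.060. The brightness-matched excess of these 36 averaged 0.060 over arrays, and 25 of 36 had a mean above 0.

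**Figure D3:**
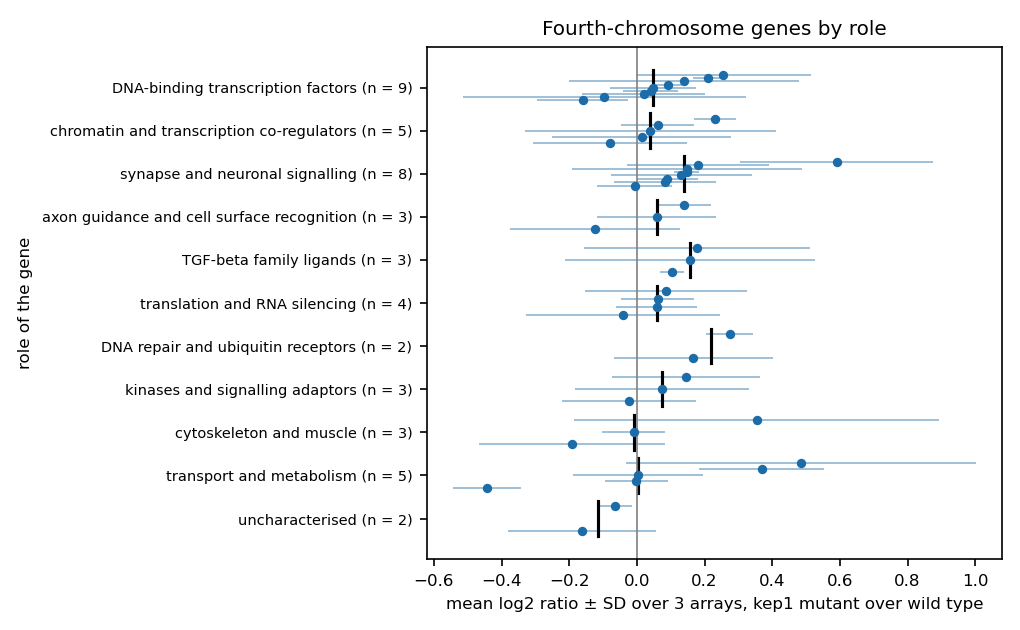
Mean log2 ratio of kep1 mutant over wild type with its SD over 3 arrays (x axis) for each measured gene, grouped by role (y axis), with a black bar at the median of each group. The synaptic group has its median at 0.14, the cytoskeletal group at -0.009 and the uncharacterised pair at -0.11.

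All 3 ligands of the TGF-beta family had a mean above 0. Actbeta, an activin that acts in neurons and muscle, had 0.43, -0.20 and 0.30. The ligand mav (maverick) had 0.50, -0.24 and 0.21. Both were high on arrays 1 and 3 and below 0 on array 2, so that their means of 0.18 and 0.16 lay within the spread. The relative of myostatin, myo (myoglianin), had 0.083, 0.085 and 0.15 by its brighter probe, with a mean of 0.10 ± 0.035, and a mean of -0.14 by its other probe, which array 2 alone placed at -0.50.

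Translation and RNA silencing genes stayed near 0. The ribosomal protein gene RpS3A, whose probe was the brightest of this group, had ratios of -0.15, 0.28 and -0.26, a mean of -0.040 that changed sign without array 1 or array 3. A dim second probe had a mean of -0.13. The initiation scaffold eIF4G1 had means of 0.087 and -0.016 from its probes. The microRNA effector gw had means of 0.061 and 0.004, and 4E-T, which binds the cap-binding protein eIF4E and holds mRNAs from translation, had 0.058. In this group the means of the 4 genes lay between -0.04 and 0.09.

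Both genes of DNA repair and ubiquitin recognition had a mean above 0. Thd1, a thymine DNA glycosylase listed as Tdg in the gene table, had foreground intensities of 655, 828 and 555 in wild type and of 880, 825 and 685 in mutant. On array 2 the raw intensities were level, before normalization. The normalized log2 ratios were 0.26, 0.21 and 0.35, which lay close together with a mean of 0.27 ± 0.070 and an adjusted p of 0.143 in limma. A dimmer Thd1 probe, not above the blank level in any channel, had a mean of 0.005. Rad23, which carries ubiquitylated proteins to the proteasome, had 0.19, 0.39 and -0.081.

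Kinases and signalling adaptors had a median of 0.074 over 3 of 5 listed genes. The small GTPase Arl4 had 0.069, 0.39 and -0.028, with a mean of 0.14. Asator, a kinase of the tau-tubulin kinase family, had a mean of 0.074, and the adaptor Crk one of -0.024, and both differed in sign between arrays.

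The cytoskeletal genes went both ways. Ank, ankyrin, which ties membrane proteins to spectrin, had ratios of -0.025, -0.51 and -0.038, so that its mean of -0.19 ± 0.28 rested on array 2. For bt (bent, the giant muscle protein projectin) 4 probes gave means from -0.26 to 0.35. The brightest of them had -0.17, 0.91 and 0.32, so that bt was the gene with the widest spread over probes and one of the widest over arrays. The kinesin gene Kif3C had a mean of -0.009 at a signal below the blank level.

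Transport and metabolism held the lowest mean of the list, that of ATPsynbeta, which encodes the catalytic beta subunit of mitochondrial ATP synthase. Its foreground intensities were 16022, 22047 and 15853 in wild type and 14342, 13953 and 11004 in mutant, and the channels did not overlap. The log2 ratios were -0.33, -0.51 and -0.49, a mean of -0.44 ± 0.10. On array 2 its duplicate spots differed by an SD of 0.50, where the median of member probes was 0.083. Its adjusted p of 0.0960 in limma was the lowest of the 65 member probes and missed the threshold. Under other settings with all 3 arrays this p was 0.0536 to 0.351 in limma, and print-tip loess gave a mean of -0.31. At an adjusted p below 0.1 ATPsynbeta would be the 1 member probe called, and lower. Of all probes, 1.36% were called lower at that threshold and 0.767% higher, 2.12% together. Muscle markers, at a median of -0.19, lay on the same side, and their part in the ATPsynbeta value was not tested.

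The lipid carrier gene apolpp encodes the apolipophorin of the hemolymph, which is made in the fat body. Its brighter probe had 0.99, 0.51 and -0.047, and its other probe 0.96, 0.57 and 0.52. These probes agree on arrays 1 and 2 and part on array 3. Their means were 0.48 ± 0.52 with an adjusted p of 0.385 and 0.68 ± 0.24 with an adjusted p of 0.1005, and the latter probe passed the threshold of 0.05 in limma under 5 alternative settings, at 0.0226 to 0.0481. Fat body markers had a median log2 ratio of 0.67 on the same arrays, with means from 0.03 to 2.72. Their part in the apolpp value was not tested.

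The gene yellow-h, of the family named for the pigmentation gene yellow, had 0.39, 0.54 and 0.17, a mean of 0.37 ± 0.19 with an adjusted p of 0.173 in limma, from a probe above the blanks in 3 of 6 channels. The plasma membrane calcium pump PMCA and the zinc transporter Zip102B had means of 0.003 and -0.002. The Zip102B probe was above the blanks in 2 of 6 channels. Of the 2 uncharacterised genes, CG1674 had -0.41, -0.083 and 0.007, a mean of -0.16, and CG1909 had -0.10, -0.009 and -0.084 at a signal below the blank level.

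Agreement between probes of a gene and between arrays was limited. Among the 14 members with more than 1 probe, 6 had all probes above 0 and 3 had all below, and 5 had probes of both signs. Only bt had probes more than 0.5 apart. Across the 47 genes, which share libraries and are not independent replicates, array 2 had a Pearson's r of 0.156 with array 1 and 0.126 with array 3, and arrays 1 and 3 had 0.340. These are below the values over all genes given above, and no test of that difference was made. Duplicate spots of a member probe differed by a median SD of 0.085, 0.083 and 0.063 on the 3 arrays, less than the median SD of 0.18 over the arrays.

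Higher ratios were spread along the order of genes on the chromosome. The first 24 members had medians of 0.095, -0.061 and 0.062 on the 3 arrays, and the 23 that followed had 0.12, 0.085 and 0.089. The lean was thus present on every array among the latter and absent on array 2 among the former, and averaging over arrays first gave medians of 0.043 and 0.090. The difference between them was not tested. Neighbours differed. ATPsynbeta at -0.44 stood between CG11076, an unlisted gene at 0.19, and CaMKII at -0.007. Of the 21 genes outside the list, CG31997 had 0.69, 0.50 and 0.27, a mean of 0.49 with an adjusted p of 0.135 in limma. CR43361 had a mean of 0.35 and ND-49, a subunit of mitochondrial complex I, one of 0.31. On the other side Rnf11 had -0.41, -0.40 and -0.22, a mean of -0.34 ± 0.10 with an adjusted p of 0.125. Each of these 4 genes had 1 sign on all arrays and none passed the threshold.

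**Figure D4:**
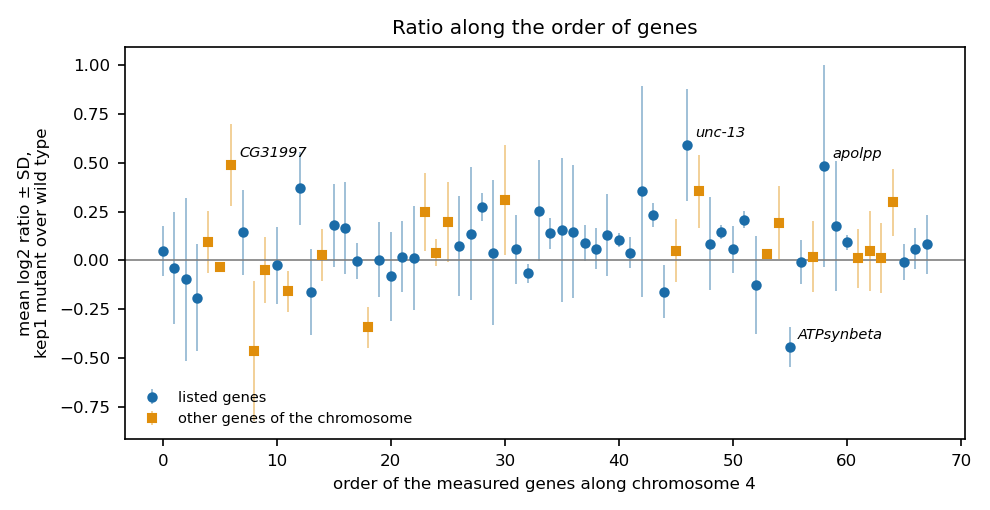
Mean log2 ratio of kep1 mutant over wild type with its SD over 3 arrays (y axis) for the 68 measured genes of chromosome 4 in their order along it (x axis, rank from 0), with the 47 listed genes as circles and the 21 others as squares. Genes above and below 0 lie along the whole chromosome, and the listed genes run from ATPsynbeta at -0.44 to unc-13 at 0.59.

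The regulators of chromatin on chromosome 4 were read from the same arrays, and none of those measured lies on that chromosome itself. Of 12 listed, 11 were measured, with a median of 0.024, and 6 had a mean above 0. None passed the threshold. Pof, the protein that coats chromosome 4, stood apart from the rest of them and was named after its values were seen. Its foreground intensities were 2293, 2795 and 2058 in wild type and 1360, 1268 and 601 in mutant. The log2 ratios were -0.97, -0.89 and -1.80, all below 0, with a mean of -1.22 ± 0.50 and an adjusted p of 0.108 in limma, which was 0.0119 to 0.0177 under 5 other settings that called 2.49% to 8.87% of all probes. Testis and accessory gland markers had medians of -1.07, -0.46 and -1.77 on the same arrays, and their part in the Pof value was not tested. Beside it, the genes of the chromosome to which Pof binds had the median of 0.074 given above. HP1b, a heterochromatin protein, had 0.20, 0.45 and 0.013.

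Genes that lie in the heterochromatin near the centromeres of the other chromosomes gave a second view of heterochromatic genes. Of 16 listed symbols 8 were measured, with medians of 0.042, 0.029 and -0.035 on the 3 arrays and of -0.019 after averaging. Of these, 4 had a mean above 0, and no shared lean was seen among them.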

How the data were processed

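Total RNA was hybridised to 3 arrays of 11744 probes spotted in duplicate. The scanner tables hold linear foreground and local background intensities, not normalized, per the file headers. A deposited table of log2 values matched, without centring, the log2 ratio of the foregrounds, mutant channel over wild-type channel, and was used as an alternative. The image software is not given in the sources used here, and 3 columns that the submitters added to a table were not used.

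Intensities were background-corrected by normexp (offset 50) and normalized by loess within each array in limma 3.58.1 (R 4.3.3). Failed, blank and control spots had weight 0, and duplicates were averaged. Probes with a channel over its local background by 2 SD on 2 or more of 3 arrays were tested. limma tested the mean log2 ratio of the 3 arrays against 0, two-sided, with Benjamini-Hochberg adjustment over 11733 probes and a threshold of 0.05. Medians and counts over lists are descriptions without a test. The 3 arrays limit the precision. The steps were tested on simulated data.

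Members and lists were chosen with earlier results of these data known. Genes given in full were the 6 highest and 6 lowest means of 1 sign on all arrays (only 4 were lowest), the brightest gene of each role, members whose probes differ in sign or by over 0.5, and the 5 other chromosome 4 genes with the largest ratios of 1 sign, 1 of which is not reported here. All members could be named by role. Symbols and gene order came from an NCBI RefSeq table of Release 6 plus ISO1 MT. A planned search of promoter motifs was not run, since no sequences were used here.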

Additional observations from a re-analysis of the deposited data

How the results depend on the processing

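The median of the 47 genes stayed above 0 under every alternative tried, at 0.055 to 0.103 with an array left out and at 0.058 to 0.175 otherwise. The highest value came from the deposited log2 values after centring, where the 21 other chromosome 4 genes had 0.103. Member probes called higher numbered 1 without background subtraction, with plain subtraction, with the deposited table and with an intensity trend, and 2 when only probes above the blanks were kept. They were apolpp and, in the last, also unc-13 (adjusted p 0.0427 in limma). The share of all probes called was 2.49% to 8.87% under these settings, against 0.145%. At an adjusted p below 0.1, 1 was called lower. Genes above 0 on all arrays numbered 17 with print-tip loess. Above the blanks they numbered 6 of 34 (17.6%), against 21.0% of other genes above the blanks, and 9 of the 34 had 1 sign. With plain subtraction, median centring or the deposited table, 2 genes were below 0 on all arrays. With 1 array left out, by construction, 24 to 29 genes had 1 sign, 16 to 23 were above 0 and 6 to 8 below 0. The mean changed sign in 6, 11 and 10 of the 47 genes without array 1, 2 and 3, for means of up to 0.157, 0.138 and 0.058 in size, and in at most 6 under the other settings. Pur-alpha had -0.013 with print-tip loess, and -0.095 to 0.251 with an array left out. RpS3A had 0.051 with print-tip loess, 0.052 with the deposited table, and -0.203 to 0.068 with an array left out. CaMKII had 0.074 with the deposited table, and -0.070 to 0.036 with an array left out. The mean of all probes gave myo -0.015, and eIF4G1 had -0.051 to 0.156 with an array left out. Pof kept its direction, with an adjusted p of 0.0119 to 0.360 in limma. Settings for Pof and for members outside the synaptic and guidance groups were chosen after seeing the data. The causes were not tested. The test in limma was itself paired, since each array pairs 1 mutant with 1 wild-type RNA and its ratio was tested against 0.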
